A study of Homo sapiens with 4 samples.

Results

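The 39 genes described here carry out or control the making of cholesterol and fatty acids. They were taken by name from the 40205 genes listed for each library: 5 genes for the sterol regulatory element binding proteins (SREBPs) and their regulators, 18 for the mevalonate and sterol pathway, 5 for sterol uptake, transport and export, and 11 for fatty acid synthesis. The rule uses no measured value. Of the 39 genes, 38 were expressed at a level that allowed a test, and the other, NPC1L1, was barely detected.

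SREBPs are transcription factors made as precursors in the membrane of the endoplasmic reticulum. When membrane cholesterol is low, the escort protein SCAP carries the precursor to the Golgi, where proteases release the active part. It enters the nucleus and switches on genes of sterol and fatty acid synthesis. When cholesterol is plentiful, INSIG1 and INSIG2 hold SCAP back, and the same genes are turned down. INSIG1 is itself an SREBP target, while ABCA1, a pump that exports cholesterol, is driven mainly by the liver X receptors, which sense oxysterols.

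The libraries came from human lung cancer cells transfected for 24 h with an siRNA against circZFR (group si-circZFR, 2 libraries) or with a negative control siRNA (group NC, 2 libraries). CircZFR is a circular RNA formed from exons of ZFR, and the study asked which mRNAs change when it is silenced. The sample labels name the cell line H1299, and the study's design text and methods name A549, both established lung cancer lines. All 4 libraries were transfected, in RPMI with fetal calf serum, and by the labels the groups differ only in the siRNA. Values of the 4 libraries are given below with NC first and by replicate number. Total RNA was sequenced on the Ion Proton, and the deposited values are RPKM, the reads on a gene scaled by its length and by the depth of the library. They were scaled further between libraries by trimmed means (scaled RPKM), and the groups were compared by limma on log2(scaled RPKM + 1), where a log2FC is the difference si-circZFR minus NC and FDR is the p-value adjusted over all 13885 genes tested. Nothing in the labels says that the libraries of a group came from separate cultures, so the p-values below measure the spread between these libraries, which may be technical.

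The libraries held 11040050 to 12816868 reads, of which 98.4% to 98.6% lay on listed genes. CDKN2A and CDKN2B, which are deleted in A549, were listed at 0 in all 4 libraries. AKR1B10, AKR1C1, AKR1C3, ALDH3A1 and ALDH1A1, which are high in A549, ranged from 511.6 to 1701 scaled RPKM, while UGT1A6 reached at most 0.453. CDH1, an epithelial cadherin, was at 11.4 and 8.64 in NC and at 21.5 and 21.2 in si-circZFR, and EPCAM was at 0.395 and 0.408 against 1.81 and 2.66 (FDR = 0.0821 for both by limma with Benjamini-Hochberg adjustment). Their part in the results below was not tested. ZFR, the host gene of the circle, was at 25.9 and 32.3 scaled RPKM in NC and at 5.22 and 4.62 in si-circZFR. It fell by 2.34 on the log2 scale (standard error 0.18, FDR = 0.0459 by limma with Benjamini-Hochberg adjustment). The circle was not analysed here on its own, since 1 value per gene is given. The paper reports that RT-PCR found no detectable change of ZFR with its siRNA in HCC827 and A549 cells. In these libraries, any loss of the circle, less ZFR mRNA and any other effect of the siRNA cannot be told apart as sources of the differences below. NC 2 differed from NC 1 along transcript length, with longer transcripts lower in NC 2 (Spearman's rho -0.343 over the 13885 genes tested and -0.686 over the 38 members). Both are descriptions across genes, which are not independent replicates.

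Of the 6 members with an unadjusted p under 0.05 in the comparison below, 5 have a promoter in the RefSeq table used here (GRCh38.p14), as does SREBF2, which is shown because its promoter holds the core letters of a sterol regulatory element. Each sequence runs 5′ to 3′ on the strand of the gene, from 250 bases before the start of transcription to 50 after it, and is 300 bases long. They are SREBF2 (chr22:41832855-41833154, plus strand), SREBF1 (chr17:17836937-17837236, minus strand), INSIG1 (chr7:155297628-155297927, plus strand), MVD (chr16:88663042-88663341, minus strand), NSDHL (chrX:152830813-152831112, plus strand) and ABCA1 (chr9:104928106-104928405, minus strand). Capitals mark the element core TCACCCCAC, the E-box CACGTG and the CCAAT box, each on either strand, so that a CCAAT box on the other strand reads ATTGG.
SREBF2: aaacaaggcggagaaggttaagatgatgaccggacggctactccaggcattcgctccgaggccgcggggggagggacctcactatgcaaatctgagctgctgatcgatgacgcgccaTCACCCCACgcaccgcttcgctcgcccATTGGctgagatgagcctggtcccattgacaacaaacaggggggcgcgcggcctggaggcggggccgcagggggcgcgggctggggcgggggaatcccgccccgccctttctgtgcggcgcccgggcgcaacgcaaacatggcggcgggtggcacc
SREBF1: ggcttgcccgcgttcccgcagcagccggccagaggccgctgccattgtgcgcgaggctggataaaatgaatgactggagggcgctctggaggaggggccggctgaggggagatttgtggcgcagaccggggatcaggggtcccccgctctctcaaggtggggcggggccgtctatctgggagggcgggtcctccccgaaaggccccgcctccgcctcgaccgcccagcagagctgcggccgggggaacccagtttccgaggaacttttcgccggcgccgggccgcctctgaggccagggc
INSIG1: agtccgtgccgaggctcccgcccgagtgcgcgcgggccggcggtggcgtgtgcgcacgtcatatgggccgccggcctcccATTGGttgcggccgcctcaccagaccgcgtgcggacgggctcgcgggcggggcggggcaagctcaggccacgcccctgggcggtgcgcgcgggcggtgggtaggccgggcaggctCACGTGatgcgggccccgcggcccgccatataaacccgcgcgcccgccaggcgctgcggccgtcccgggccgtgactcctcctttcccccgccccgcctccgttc
MVD: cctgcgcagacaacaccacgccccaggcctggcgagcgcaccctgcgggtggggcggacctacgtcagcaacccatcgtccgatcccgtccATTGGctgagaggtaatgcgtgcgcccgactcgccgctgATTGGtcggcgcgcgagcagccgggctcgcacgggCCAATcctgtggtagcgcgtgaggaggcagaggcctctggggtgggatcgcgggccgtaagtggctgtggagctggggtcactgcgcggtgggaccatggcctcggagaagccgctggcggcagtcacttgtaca
NSDHL: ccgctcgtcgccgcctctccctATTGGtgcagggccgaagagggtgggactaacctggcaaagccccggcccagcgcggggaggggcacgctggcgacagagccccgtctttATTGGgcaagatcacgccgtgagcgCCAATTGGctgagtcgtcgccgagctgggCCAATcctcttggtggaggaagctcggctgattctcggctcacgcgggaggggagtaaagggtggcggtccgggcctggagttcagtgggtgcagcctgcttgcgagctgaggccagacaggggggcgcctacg
ABCA1: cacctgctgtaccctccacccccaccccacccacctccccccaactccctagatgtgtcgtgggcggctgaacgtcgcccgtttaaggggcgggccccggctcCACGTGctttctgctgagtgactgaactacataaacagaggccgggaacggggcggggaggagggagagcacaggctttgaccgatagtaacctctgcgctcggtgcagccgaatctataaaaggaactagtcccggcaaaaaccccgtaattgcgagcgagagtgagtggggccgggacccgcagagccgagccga

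The element core in the SREBF2 promoter begins 133 bases before the start, and an inverted CCAAT box follows it at 106 bases. The INSIG1 promoter holds an inverted CCAAT box at 170 bases and an E-box at 55 bases before the start. NSDHL has 5 CCAAT boxes, among them a pair that overlap on opposite strands, and MVD has 3. ABCA1 has 1 E-box, and the SREBF1 window held none of these 3 motifs. A match is a description of the letters and not of binding. Distances are from the RefSeq start. The gene positions given below come from GENCODE, which has another start for SREBF1, INSIG1, MVD and NSDHL.

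Promoters were found for 34 of the 39 members. ACAT2, FDFT1, SQLE, ABCG1 and FASN had no entry. The element core TCACCCCAC was in 1 of the 34 (2.94%), against 0.411% of the 8759 promoters of genes tested and 0.443% of all 27305 promoters. The E-box CACGTG was in 6 promoters (17.6%, against 10.4% of genes tested and 7.43% of all), those of SCAP, INSIG1, LSS, SC5D, ABCA1 and ELOVL5. The CCAAT box was in 23 promoters, or 67.6%, against 36.8% of genes tested and 35.7% of all. The GC box GGGCGG, the site of SP1, was in 31 (91.2%, against 75.0% and 45.9%). All 4 were searched on both strands, and none of the 4 contains another. Only the exact letters were searched, so other forms of a sterol regulatory element were not counted.

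**Figure D1:**
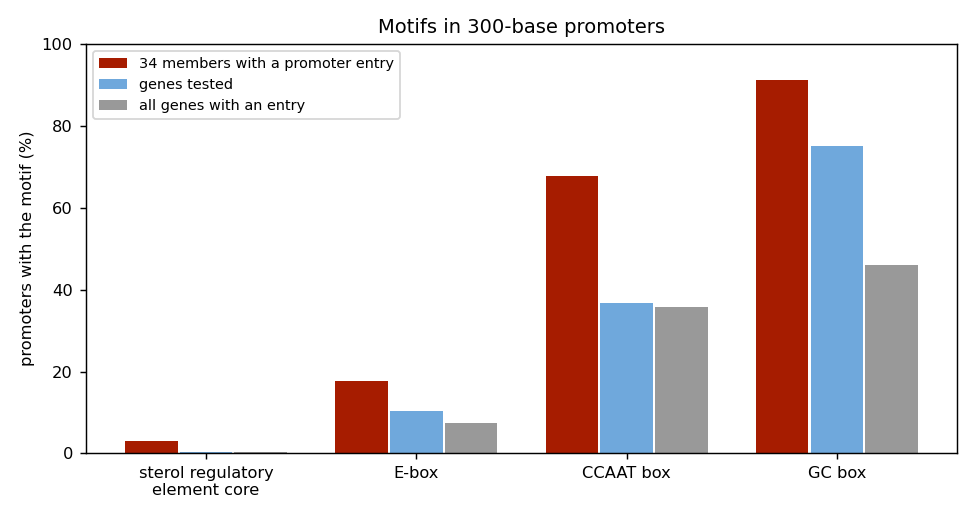
The bars give the percentage of 300-base promoters that hold each motif on either strand, for the 34 members with an entry, for the genes tested and for all genes with an entry. The CCAAT box was in 67.6% of the members' promoters against 36.8% of those of genes tested. The exact core TCACCCCAC was rare in every group, and other forms of the sterol regulatory element were not searched.

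In NC cells several genes of fatty acid synthesis were among the most abundant mRNAs measured. ACLY, which makes cytosolic acetyl-CoA from citrate, stood at 241.7 ± 6.27 scaled RPKM (SD, n = 2), above 98.4% of the genes tested. SCD, which introduces the first double bond into saturated fatty acids, was at 208.0 ± 0.0489 (SD, n = 2). FADS2 and FADS1, the desaturases of polyunsaturated fatty acids, were at 141.6 ± 1.14 and 96.0 ± 0.211 (SD, n = 2), and FASN, which builds palmitate, was at 133.9 ± 6.18 (SD, n = 2). The order ACLY, SCD, FADS2, FASN, FADS1 held in both NC libraries without overlap, with FADS2 at 142.4 and 140.8 and FASN close behind at 138.3 and 129.6. Among the sterol enzymes, FDPS (84.1 ± 11.02), FDFT1 (80.2 ± 8.91) and DHCR7 (74.0 ± 4.65; SD, n = 2 each) were highest, and their NC values overlapped. The lowest members tested were ABCG1, a cholesterol exporter, at 1.16 ± 0.296, the sterol desaturase SC5D at 2.41 ± 0.119, the sterol carrier STARD4 at 3.78 ± 0.444 and INSIG2 at 4.97 ± 0.254 (SD, n = 2 each). NPC1L1, the cholesterol importer of the gut, had 3, 6, 4 and 3 reads in the 4 libraries and was not tested. The median member tested was at 26.2 scaled RPKM in NC, against 7.03 over all genes tested.

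**Figure D2:**
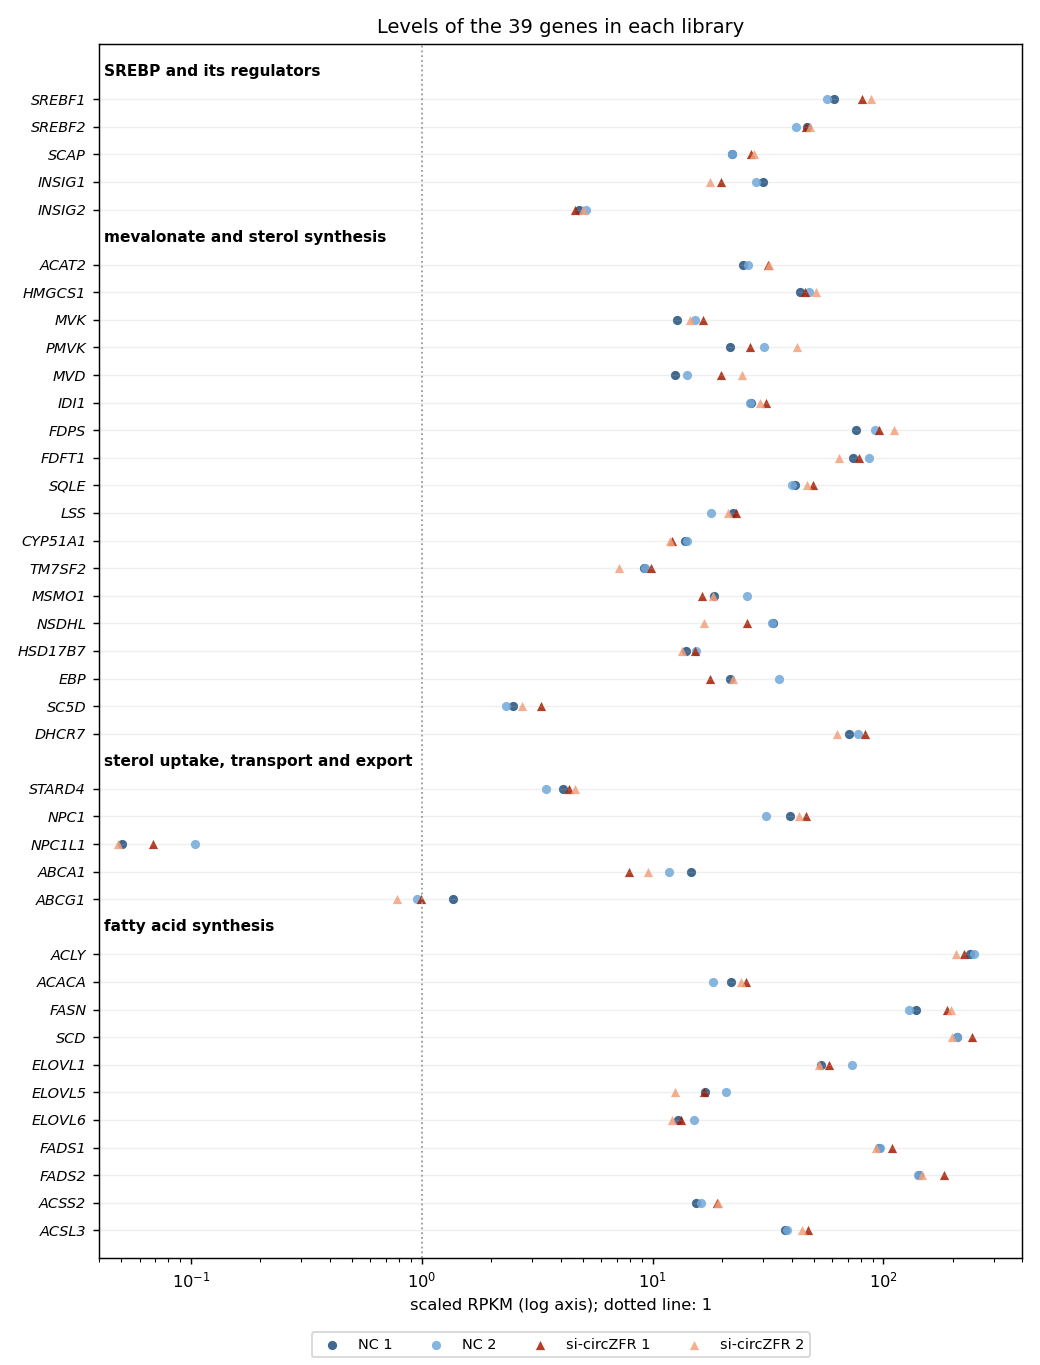
Each row is 1 of the 39 genes, grouped by role, and the horizontal log axis is scaled RPKM, with circles for the NC libraries and triangles for the si-circZFR libraries. ACLY, SCD, FADS2 and FASN lie furthest to the right, NPC1L1 lies below 0.11 in every library, and the circles and triangles of most genes lie close together.

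None of the 38 members tested passed FDR under 0.05 with |log2FC| over 1 by limma, against 8 of all 13885 genes (0.0576%), of which 4 were higher and 4 lower in si-circZFR. By limma-voom on the recovered reads, 372 of 14791 genes passed (2.52%) and again no member did. The paper, whose methods name edgeR, reports more dysregulated genes at these thresholds than either fit here. The smallest FDR of a member was 0.126 by limma and 0.0837 by limma-voom, both after Benjamini-Hochberg adjustment over all genes tested. Without adjustment, 6 members had a p under 0.05 by limma. SREBF1, MVD and FASN were higher in si-circZFR, 3 of 38 or 7.89%, against 9.68% of all genes tested. INSIG1, NSDHL and ABCA1 were lower, also 7.89%, against 11.8% of all. Neither share was above that of all genes tested. Both si-circZFR libraries lay above both NC libraries for 15 members (39.5%, against 27.3% of all genes tested) and below both for 7 (18.4%, against 28.7%), and 16 overlapped. With values scaled by library total only, these counts became 24 and 2, while the shares of all genes tested became 39.6% and 18.2%. At an unadjusted p under 0.05, that scaling gave 11 members higher and 1 lower (28.9% and 2.63%), against 15.4% and 6.94% of all genes. When each library was left out in turn, the log2FC of each of the 6 members named above kept its sign. It moved most for NSDHL, from -0.94 to -0.35. None of the 6 kept an unadjusted p under 0.05 by limma in all of these fits. A fit with 1 library in a group takes its spread from the other group alone, so its p depends on which library is left out.

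The median log2FC of the 38 members, si-circZFR minus NC on the log2(scaled RPKM + 1) scale, was 0.09, with 22 above 0 and 16 below, and the median of all genes tested was -0.00. By role the medians were 0.09 for SREBP and its regulators, 0.11 for mevalonate and sterol synthesis, 0.00 for the 4 transport genes tested and 0.07 for fatty acid synthesis. Scaled by library total only, the median of all genes moved to 0.15 and that of the members to 0.27, which left the members 0.12 above, against 0.09 in the main scaling. After a correction of each library for transcript length and GC content, the members' median was 0.02. By library, the members' median deviation from the gene means was -0.05 in NC 1, -0.02 in NC 2, 0.09 in si-circZFR 1 and -0.00 in si-circZFR 2. Of the si-circZFR libraries, only si-circZFR 1 lay above 0.

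**Figure D3:**
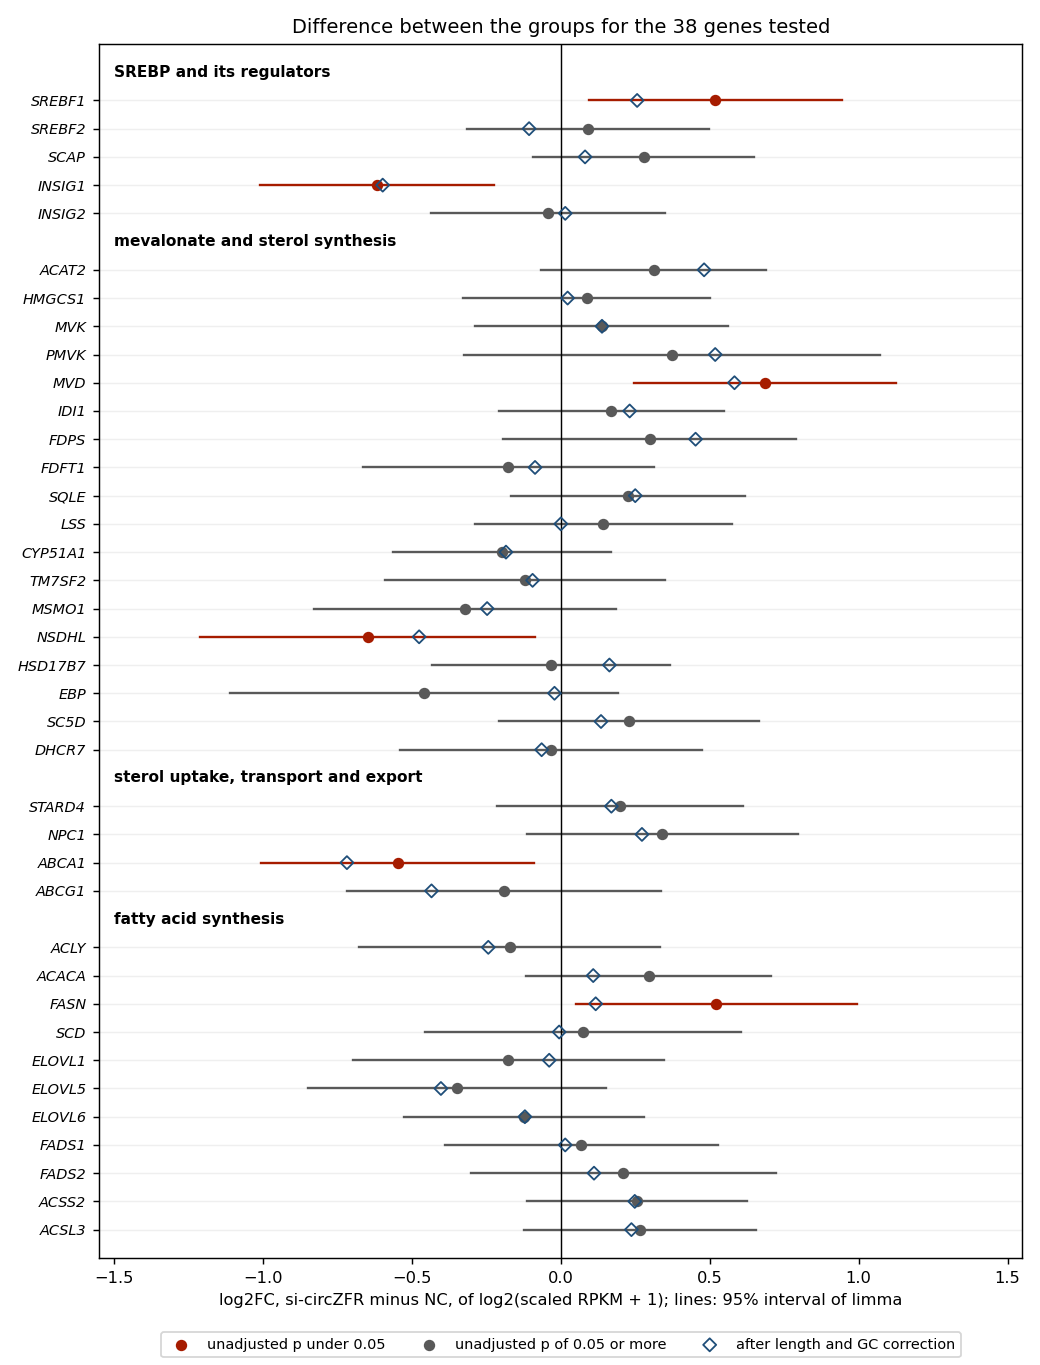
For each of the 38 genes tested, the filled point is the log2FC (si-circZFR minus NC), the line its 95% interval by limma and the open diamond the log2FC after the length and GC correction, with red for an unadjusted p under 0.05. The intervals of 32 genes include 0, and the diamonds of SREBF1 and FASN lie nearer to 0 than their points, at 0.26 and 0.12.

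SREBF1, on chromosome 17 from 17810399 to 17837002 (GRCh38, minus strand), encodes the SREBP that drives fatty acid synthesis above all. Its level was 61.01 and 56.7 scaled RPKM in the NC libraries and 81.1 and 88.6 in the si-circZFR libraries. Both si-circZFR libraries were above both NC libraries, and the mean was 44.1% higher. The log2FC was 0.52 (standard error 0.17, 95% interval 0.10 to 0.94, unadjusted p = 0.0244 and FDR = 0.177 by limma). It ran from 0.46 to 0.58 when each library was left out in turn, and was 0.26 after the length and GC correction (unadjusted p = 0.13 by limma). SREBF2, which encodes the SREBP for cholesterol synthesis, was at 46.9, 41.8, 46.3 and 48.1 scaled RPKM. Its groups overlapped, with a log2FC of 0.09 and a 95% interval from -0.31 to 0.50 by limma.

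SCAP, the escort of the SREBP precursors, was at 22.2 in both NC libraries and at 26.6 and 27.6 scaled RPKM in the si-circZFR libraries. The groups did not overlap, and the log2FC was 0.28 (95% interval -0.09 to 0.65, FDR = 0.333 by limma), or 0.08 after the length and GC correction. INSIG1, on chromosome 7 from 155297776 to 155310235 (GRCh38, plus strand), retains SCAP in the endoplasmic reticulum and is one of the most responsive SREBP targets. Its level was 30.2 and 28.2 scaled RPKM in NC and 19.8 and 17.6 in si-circZFR, on 670 to 1103 reads. The si-circZFR libraries were both below the NC libraries, a difference in the means of -35.9%. This difference had the smallest p of the 38 members, with a log2FC of -0.62 (standard error 0.16, 95% interval -1.01 to -0.22, unadjusted p = 0.00882 and FDR = 0.126 by limma). It was -0.60 after the length and GC correction and ran from -0.69 to -0.54 over the libraries left out. INSIG2, its paralog, was at 4.79, 5.15, 4.59 and 5.02 scaled RPKM in the 4 libraries, with a log2FC of -0.04 (95% interval -0.43 to 0.35 by limma). SREBF1 and SCAP on one side and INSIG1 on the other thus lay in opposite directions, none of them past the adjusted threshold.

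In the mevalonate pathway, HMGCS1, which makes HMG-CoA, was at 43.3 and 47.6 scaled RPKM in the NC libraries and at 45.8 and 50.9 in the si-circZFR libraries. Its log2FC was 0.09 (95% interval -0.33 to 0.50 by limma), and the groups overlapped. SQLE, the squalene epoxidase, was at 41.5 and 40.3 in NC and at 49.5 and 46.6 in si-circZFR. The log2FC of SQLE was 0.23 (95% interval -0.17 to 0.62, FDR = 0.444 by limma), with groups that did not overlap. HMGCS1 and SQLE, both entry or control steps and both classical SREBP targets, had intervals that lay within 1 of 0 on the log2 scale.

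MVD, which decarboxylates mevalonate diphosphate to isopentenyl diphosphate, lies on chromosome 16 from 88651935 to 88663161 (GRCh38, minus strand). It was at 12.5 and 14.2 scaled RPKM in NC and at 19.8 and 24.4 in si-circZFR, on 295 to 601 reads. The groups did not overlap, and the si-circZFR mean was 66.1% higher. With a log2FC of 0.69 it had the highest value of the 38 members (standard error 0.18, 95% interval 0.25 to 1.13, unadjusted p = 0.00894 and FDR = 0.127 by limma). It was 0.58 after the length and GC correction and ran from 0.54 to 0.83 over the libraries left out. NSDHL, a sterol dehydrogenase that takes part in removing the C4 methyl groups, lies on chromosome X from 152830967 to 152869729 (GRCh38, plus strand). Its level was 33.1 and 33.0 scaled RPKM in NC and 25.7 and 16.8 in si-circZFR. The NC libraries nearly coincided, while the si-circZFR libraries differed from each other by more than si-circZFR 1 differed from NC. The log2FC of NSDHL was -0.65 (standard error 0.23, 95% interval -1.21 to -0.08, unadjusted p = 0.0307 and FDR = 0.19 by limma). Without si-circZFR 2 it was -0.35, and without si-circZFR 1 it was -0.94. After the length and GC correction it was -0.48 (unadjusted p = 0.0699 by limma).

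The other 14 sterol genes had log2FC values from -0.46 to 0.37. EBP, the sterol isomerase, had the lowest of these, and its NC libraries stood at 21.7 and 35.2 scaled RPKM, so that the 2 controls differed more from each other than the group means did. PMVK, the phosphomevalonate kinase, had the highest, with 21.5 and 30.3 in NC and 26.3 and 42.3 in si-circZFR. Values of 4 genes were higher in both si-circZFR libraries than in both NC libraries. These were ACAT2, which condenses acetyl-CoA (log2FC 0.31), FDPS, which makes farnesyl diphosphate (0.30), SC5D (0.23) and the isomerase IDI1 (0.17). CYP51A1, the lanosterol demethylase, and MSMO1, the C4 methyl oxidase, were lower in both, at -0.20 and -0.32. Of all 18 sterol genes, 33.3% lay apart above and 16.7% below, against 27.3% and 28.7% of all genes tested. MVK, FDFT1, LSS, TM7SF2, HSD17B7, DHCR7, EBP and PMVK overlapped between the groups. Each of the 14 intervals includes 0 in the main fit. The length and GC correction brought EBP to -0.02, LSS from 0.14 to 0.0006 and SC5D to 0.14. It raised ACAT2 to 0.48 (unadjusted p = 0.0113 by limma), FDPS to 0.45 (unadjusted p = 0.0275 by limma) and PMVK to 0.52 (unadjusted p = 0.0772 by limma).

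Among the transport genes, ABCA1 (chromosome 9, 104781006 to 104928155, GRCh38, minus strand) was at 14.7 and 11.8 scaled RPKM in NC and at 7.89 and 9.57 in si-circZFR. The groups did not overlap, with a difference in the means of -34.1%. The log2FC of ABCA1 was -0.55 (standard error 0.19, 95% interval -1.004 to -0.09, unadjusted p = 0.0264 and FDR = 0.18 by limma), and -0.72 after the length and GC correction. It ran from -0.69 to -0.41 over the libraries left out, with an unadjusted p of 0.0735 without NC 1 and 0.181 without si-circZFR 1 by limma. ABCG1, another liver X receptor target, was at 1.37, 0.952, 0.992 and 0.782 scaled RPKM, with groups that overlapped. It met the minimum for testing, a deposited RPKM of 1 in 2 libraries, through NC 1 and si-circZFR 1 (1.35 and 1.02). NPC1, which moves cholesterol out of lysosomes, had a log2FC of 0.34 (95% interval -0.11 to 0.80 by limma, and 0.18 without NC 2), and STARD4 had 0.20 (95% interval -0.21 to 0.61 by limma). Both were higher in each si-circZFR library than in either NC library.

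For fatty acid synthesis, FASN (chromosome 17, 82078338 to 82098294, GRCh38, minus strand) was at 138.3 and 129.6 scaled RPKM in the NC libraries and at 189.1 and 196.6 in the si-circZFR libraries, on 12513 to 20387 reads. The groups did not overlap, and the si-circZFR mean was 1.44 times the NC mean. The log2FC of FASN was 0.52 (standard error 0.19, 95% interval 0.05 to 0.99, unadjusted p = 0.0349 and FDR = 0.202 by limma). It ran from 0.48 to 0.56 over the libraries left out, and was 0.12 with the length and GC correction (unadjusted p = 0.545 by limma).

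ACLY stood at 237.2 and 246.1 scaled RPKM in NC and at 222.9 and 206.6 in si-circZFR. It was lower in each si-circZFR library than in either NC library, with a log2FC of -0.17 (95% interval -0.68 to 0.33 by limma). ACACA, which makes malonyl-CoA, was at 21.8 and 18.3 in NC and at 25.4 and 24.1 in si-circZFR, a log2FC of 0.30 (95% interval -0.12 to 0.71 by limma), or 0.11 after the correction. SCD was at 208.0 and 207.9 in the NC libraries and at 241.3 and 198.7 in the si-circZFR libraries, which lay on either side of NC (log2FC 0.07). ACLY, ACACA and FASN are successive steps from citrate to palmitate, and their values were lower, higher and higher. Of the remaining 7 genes, FADS2, ACSS2, which activates acetate, and ACSL3, which activates long-chain fatty acids, were higher in both si-circZFR libraries, at 0.21, 0.26 and 0.27. The elongase ELOVL5 was lower in both, at -0.35, and ELOVL1, ELOVL6 and FADS1 overlapped.

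SREBF1, MVD and FASN have transcripts of 63.2%, 65.5% and 65.3% GC, the 3 highest of the members tested, whose median was 49.2% and whose range was 34.4% to 65.5%. INSIG1, NSDHL and ABCA1 lie at 44.8%, 49.6% and 45.4%. Over the 38 members Spearman's rho between the log2FC and GC content was 0.349, and over the 12915 genes tested with a GC value it was 0.0793. Between the log2FC and transcript length, rho was 0.102 over the 38 members and 0.294 over the 13885 genes tested. Between the libraries of 1 group, the members' rho with GC content was 0.00449 (NC 2 minus NC 1) and 0.00624 (si-circZFR 2 minus si-circZFR 1), and over all genes it was -0.135 and -0.0686. These values share libraries and are descriptions across genes, without a test. The correction, which takes length together with GC content, left log2FC values of 0.26, 0.12 and 0.58 for SREBF1, FASN and MVD.

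**Figure D4:**
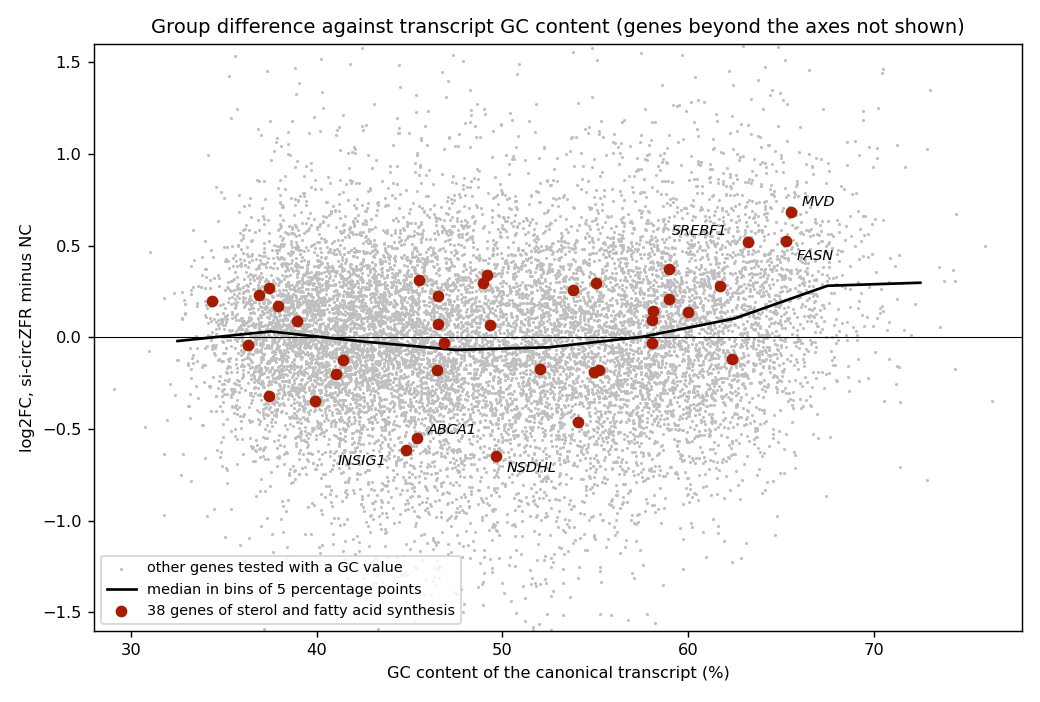
The log2FC of each gene, si-circZFR minus NC, is plotted against the GC content of its transcript in percent, with the other genes tested in grey, the 38 members in red and the median of all genes in bins as a black line. The line turns upward above about 60% GC, where SREBF1, FASN and MVD lie, and INSIG1, NSDHL and ABCA1 lie below the line at 44.8% to 49.6% GC.

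The motifs were set beside the differences as a description. The 22 members tested with a CCAAT box had a median log2FC of 0.08, with 12 above 0, and the 11 without it had 0.26, with 7 above 0. Of the 6 members with an E-box, the log2FC was above 0 for SCAP (0.28), SC5D (0.23) and LSS (0.14) and below 0 for INSIG1 (-0.62), ABCA1 (-0.55) and ELOVL5 (-0.35). SREBF2, the 1 member with the element core, had a log2FC of 0.09.

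Beyond the members, 56 other genes of the pathway were listed and 50 tested. None passed by limma or limma-voom, 5 were higher and 5 lower at an unadjusted p under 0.05 (10 of 50, against 21.5% of all genes tested), and the median log2FC was -0.07. By direction these were 10% higher and 10% lower, against 9.68% and 11.8% of all genes tested. The 3 genes of smallest p in each of 4 groups follow, with counts on short lists to be read against those shares of all genes. For SREBP processing and degradation (9 tested, 3 higher and 1 lower at an unadjusted p under 0.05), these were SYVN1, ERLIN2 and ERLIN1. SYVN1, a ubiquitin ligase of the endoplasmic reticulum, was at 17.4 and 13.1 scaled RPKM in NC and at 26.002 and 27.4 in si-circZFR (log2FC 0.78, FDR = 0.115 by limma). ERLIN1 and ERLIN2, partner proteins in sterol-dependent degradation, were higher by 0.67 and 0.64 on the log2 scale, with groups that did not overlap. For sterol and isoprenoid genes (11 tested, 1 lower), they were TMEM97, POR and NUS1. TMEM97, a sterol-regulated membrane protein, was at 18.4 and 25.1 in NC and at 10.7 and 10.8 in si-circZFR. The log2FC of TMEM97 was -0.94, and its FDR of 0.0956 by limma was the smallest of the 50. By limma-voom its FDR was 0.0424 at a log2FC of -0.999, just short of the fold set for passing. POR, the electron donor of CYP51A1 and SQLE, had -0.37 (-0.14 after the correction) and NUS1, for dolichol synthesis, 0.43.

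For sterol transport and the liver X receptors (11 tested, 1 lower), the 3 genes were NPC2, SCARB1 and NR1H2. NPC2, which hands lysosomal cholesterol to NPC1, was at 111.6 and 167.8 scaled RPKM in NC and at 84.7 and 73.5 in si-circZFR, a log2FC of -0.79 (FDR = 0.168 by limma). After the length and GC correction NPC2 was at -0.42. The lipoprotein receptor SCARB1 had -0.49, and NR1H2, a liver X receptor, 0.26. For fatty acids and triglycerides (19 tested, 2 higher and 2 lower), they were ACSL4, ME1 and DGAT2. ACSL4, which activates arachidonic acid, was at 12.2 and 14.2 in NC and at 22.2 and 24.0 in si-circZFR (log2FC 0.76, FDR = 0.099 by limma and 0.0486 by limma-voom, where the log2FC was 0.81). ME1, a source of NADPH for fatty acid synthesis, had 0.77. DGAT2, which completes triglycerides, was low, at 1.28 and 2.14 scaled RPKM in NC and 0.353 and 0.465 in si-circZFR. Its log2FC was -0.93 by limma and -1.98 by limma-voom (FDR = 0.0612 by limma-voom).

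Some members share sequence with other listed genes. FDPS has 10 pseudogenes in the files, of which the highest reached 3.51 scaled RPKM, HSD17B7 has 2 (at most 4.37) and SCD has 1 (at most 3.11). These lie far below FDPS and SCD, but HSD17B7 itself stood at only 14.7 ± 1.05 in NC (SD, n = 2), so its value is the least certain of the 3. FADS1 and FADS2 overlap on opposite strands of chromosome 11 in GRCh38 (61799627 to 61829318 and 61792980 to 61867354). Whether the counting used strand is not given in the sources used here, so reads of their shared stretch cannot be told apart.

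The precision of the members' differences rests on 2 libraries in each group, for which an exact permutation test can give no two-sided p below 0.333. The standard errors of the 38 log2FC values ran from 0.15 to 0.28, and the 95% intervals were 0.73 to 1.40 wide. Even INSIG1 and MVD, the members of smallest p, were not called after adjustment.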

How the data were processed

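Total RNA of 4 libraries (NC and si-circZFR, 2 each) was sequenced on the Ion Proton. The authors deposited 1 RPKM value per gene and library. The study's methods name hg38, the submitters' processing notes list GRCh37, and the aligner, annotation and treatment of reads with several positions are not given in the sources used here. The methods also name removal of batch effects by SVA, and no scaling between libraries was seen in the deposited RPKM.

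Small RNA genes, whose length is known, gave the library totals, and 96.2% to 97.6% of them then held whole reads (tolerance 0.02). With the smallest length that gave whole reads, 24282 of 24289 genes came out whole (99.97%). This length can be a fraction of the true one, and reads are then too few. For EBP it was 415 bases, so its reads are not given.

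RPKM values were divided by trimmed-mean factors (0.891 to 1.11, 30% of the ratios and 5% of the levels cut at each end, no weights). The test, for 13885 of 40205 genes whose deposited RPKM reached 1 in 2 or more libraries, was limma on log2(scaled RPKM + 1), two-sided, with a trended prior (median prior degrees of freedom 3.82) and Benjamini-Hochberg adjustment over all genes tested. A log2FC on this scale understates the change of low genes. A gene passed at FDR under 0.05 with |log2FC| over 1. Limma-voom on the recovered reads was an alternative, as were the settings named in the closing section. A correction of each library for length and GC content, available for 12915 genes (93.01%), was added after the data were seen. The fits were tested on simulated data.

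The members and lists were chosen with earlier results of these data known, and no p was adjusted over a list. Members with an unadjusted p under 0.05 or |log2FC| over 1, the regulators and the entry enzymes HMGCS1, SQLE, ACLY, ACACA, FASN and SCD were given in full, and the 3 genes of smallest p in each other list. Positions and GC content came from GENCODE on GRCh38 and promoters from RefSeq. R 4.3.3, limma 3.58.1, Python 3.11.15, numpy 2.4.6, pandas 2.3.3 and matplotlib 3.10.9 were used.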

Additional observations from a re-analysis of the deposited data

How the results depend on the processing

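No member passed in the main result or under any of the alternatives run, leave-one-out included. Scaled by library total only, 11 members were higher and 1 lower at an unadjusted p under 0.05 (28.9% and 2.63%, all genes 15.4% and 6.94%), 24 lay apart above and 2 below (all genes 39.6% and 18.2%), the members' median was 0.27 (all genes 0.15), and 8 members turned positive, among them INSIG2 (0.11) and ACLY (0.016). With a length correction 7 members turned, 4 of them negative, among these SREBF2 (-0.018), HMGCS1 (-0.017) and SCD (-0.030). With length and GC, added after the data were seen, the median was 0.019, SREBF2 (-0.11) and SCD (-0.0051) turned negative and INSIG2 (0.015) and HSD17B7 (0.16) positive. At an unadjusted p under 0.05 by limma, MVD, ACAT2 and FDPS were then higher and INSIG1 and ABCA1 lower. These shares were 7.89% and 5.26%, against 11.3% and 11.6% of all genes. Of 568 values of the members over 15 alternatives, 30 turned in sign.

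Over all genes, the number that passed (higher and lower) was 61 and 103 with a filter of CPM above 1, 173 and 199 by limma-voom, 10 and 9 with the length correction, 73 and 70 with length and GC, 14 and 21 without pseudogenes, ribosomal protein and mitochondrial genes, and 1 and 1 with a pseudocount of 0.1. It was 0 and 0 by limma without a filter (3651 genes at an unadjusted p under 0.05) and by limma without the trend (2977). With the replicate number as a block it was 6 and 11. Across genes, the differences between replicates 2 and 1 had a Pearson's r of 0.0697 between the groups, and with only 2 pairs the numbers were not taken as pairs.

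Leaving out each library in turn, all genes passing ran from 0 to 504 higher and 0 to 471 lower (the most without NC 1, none without NC 2, with 2566 genes at an unadjusted p under 0.05 by limma). The lone library of a group was then assumed to vary like the other group. Members at an unadjusted p under 0.05 ran from 0 to 5 higher and 1 to 3 lower, with 5 higher without NC 1 (13.5%, all genes 16.6%), 1 without si-circZFR 1 (2.70%, all genes 5.25%) and 0 higher and 1 lower without si-circZFR 2 (all genes 3.50% and 5.42%). The median ran from 0.057 to 0.16, the latter without si-circZFR 2. Members lying apart ran from 17 to 21 above and 8 to 15 below, which 3 libraries reach more easily than 4. Over all genes tested in these fits, the shares lying apart ran from 33.6% to 40.9% above and from 37.9% to 45.1% below. With a library left out, 0 to 5 members turned. INSIG2 ran from -0.094 to 0.012, positive without NC 2 (0.0019) and without si-circZFR 1, and SCD from -0.065 to 0.21, negative without si-circZFR 1. The cause of these changes was not tested. The members tested had a median of 835 reads in their shallowest library.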

Other observations

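The 3′UTRs of members were searched for CTGACTC, 7 bases chosen because earlier results of these libraries had shown genes with it to be lower after circZFR silencing. It was in the 3′UTR of 5 of the 38 members tested (13.2%, against 11.3% of 11206 genes with a 3′UTR). These were SREBF1, PMVK, LSS, ELOVL6 and FADS1, with a median log2FC of 0.14 and 1 of 5 below 0. Of all genes tested, 6999 of 13885 were below 0. All genes that hold CTGACTC had a median of -0.06. Since the motif was chosen from these same libraries, that median restates the choice. The shorter TGACTC was in 12 members (31.6%, against 29.4%), with a median log2FC of 0.11 and 5 below 0, among them INSIG1 and NSDHL. All genes that hold TGACTC had a median of -0.013. ABCA1, MVD and FASN hold neither. No test was run on these values.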
